A study of Mus musculus with 15 samples.

Results

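The genes described here are 29 genes of cholesterol synthesis, of its regulation and of cholesterol transport, out of 55487 genes in the count table. They were taken by symbol, with earlier results of these data known, as 20 synthesis genes, 4 regulators and 5 transport genes. Their levels were measured in 15 skin libraries from 3-week-old mice labelled C57BL/6. The 5 WT libraries came from *Otulin* fl/fl littermates that carry no Cre, so the loxP-flanked *Otulin* alleles are shared by all 3 groups. The 10 OTULIN-KO libraries came from *Otulin* fl/fl *K14-Cre* mice, in which Cre is driven by the keratin 14 promoter of keratinocytes. OTULIN is a deubiquitinase that removes linear ubiquitin chains, and mice that lack it in keratinocytes develop inflamed skin. Of these libraries, 5 are labelled non-lesional (replicates 3, 6, 9, 12 and 15) and 5 lesional (replicates 2, 5, 8, 11 and 14), while the WT libraries are replicates 1, 4, 7, 10 and 13. Whether lesional and non-lesional skin came from the same animals is not given, and no other agent or treatment is named for any group.

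Cells build cholesterol from acetyl-CoA. Condensation steps give mevalonate, which is phosphorylated, decarboxylated and joined into farnesyl diphosphate and squalene, and squalene is then oxidised, closed into lanosterol and trimmed to cholesterol. When sterols in the endoplasmic reticulum are low, SCAP escorts the transcription factor SREBP2, the product of *Srebf2*, to the Golgi for cleavage, whereas INSIG proteins hold the complex back when sterols are plentiful. In skin, keratinocytes use cholesterol for the lipid lamellae of the permeability barrier, and sebaceous glands make large amounts of lipid.

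Promoter sequences of 6 synthesis genes are shown. *Acat2*, *Cyp51*, *Msmo1*, *Hsd17b7* and *Ebp* had an unadjusted p under 0.05 in both comparisons with WT, and *Hmgcs1*, a textbook SREBP2 target, had one in neither. Each window runs from 180 bases before to 20 bases after the RefSeq transcription start in GRCm38.p6, is written 5′ to 3′ on the strand of the gene, and has in capitals a sterol response element of the form TCACNCCAC and the CCAAT box (CCAAT, or ATTGG on the other strand).
Acat2 (chr17:12960706-12960905, minus strand): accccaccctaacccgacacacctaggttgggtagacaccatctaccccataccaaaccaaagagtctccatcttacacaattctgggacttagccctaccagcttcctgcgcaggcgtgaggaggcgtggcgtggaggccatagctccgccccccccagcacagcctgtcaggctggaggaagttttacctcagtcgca
Hmgcs1 (chr13:119690171-119690370, plus strand): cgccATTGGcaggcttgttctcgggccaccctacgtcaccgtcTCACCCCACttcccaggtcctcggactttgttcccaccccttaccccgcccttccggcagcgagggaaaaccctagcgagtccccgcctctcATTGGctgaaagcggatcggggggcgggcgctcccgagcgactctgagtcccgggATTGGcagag
Cyp51 (chr5:4104678-4104877, minus strand): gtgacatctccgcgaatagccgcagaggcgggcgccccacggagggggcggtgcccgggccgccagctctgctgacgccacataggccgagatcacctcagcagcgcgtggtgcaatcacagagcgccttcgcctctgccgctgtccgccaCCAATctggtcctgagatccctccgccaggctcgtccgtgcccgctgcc
Msmo1 (chr8:64733559-64733758, minus strand): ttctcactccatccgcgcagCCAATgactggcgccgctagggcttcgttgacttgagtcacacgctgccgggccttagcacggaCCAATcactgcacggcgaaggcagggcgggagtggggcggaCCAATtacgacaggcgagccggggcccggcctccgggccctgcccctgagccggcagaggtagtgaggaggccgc
Hsd17b7 (chr1:169969186-169969385, minus strand): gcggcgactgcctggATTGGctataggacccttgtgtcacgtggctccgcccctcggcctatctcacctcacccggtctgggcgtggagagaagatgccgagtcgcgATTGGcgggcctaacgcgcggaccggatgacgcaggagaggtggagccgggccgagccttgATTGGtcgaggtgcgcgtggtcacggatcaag
Ebp (chrX:8193493-8193692, minus strand): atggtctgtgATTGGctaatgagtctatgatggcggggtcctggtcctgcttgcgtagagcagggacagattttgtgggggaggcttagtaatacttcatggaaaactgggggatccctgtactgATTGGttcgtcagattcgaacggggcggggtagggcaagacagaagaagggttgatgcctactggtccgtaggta

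Promoter windows of 300 bases were at hand for 23 of the 29 genes. *Fdps*, *Fdft1*, *Sqle*, *Stard4*, *Npc1* and *Abcg1* had none. The letters TCACNCCAC were found on either strand in 1 of the 23 genes, *Hmgcs1*, where they begin 137 bases before the start, and in 1.44% of 27025 mouse genes with such windows. A CCAAT box was present in 20 of the 23 genes, including 16 of 17 synthesis genes, against 41.1% of the 27025 genes. The GC box GGGCGG bound by Sp1 was present in 21 of 23, against 38.2%. Only this form of the sterol response element was searched, so a window without it may still hold another form. These matches describe letters in a window, not bound sites.

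Library totals ran from 1962604 to 2567138 counts. Values below are CPM, the count of a gene relative to the TMM-scaled total of its library, from tags at the 3′ ends of transcripts, and an SD is over the 5 libraries of a group. *Otulin* itself had 12.2 to 28.2 CPM in WT, 21.2 to 30.7 CPM in non-lesional and 19.0 to 27.2 CPM in lesional libraries, so its 3′ counts did not separate the genotypes. Other skin cells keep the gene, and whether the tags lie in the deleted part is not given. The lesional libraries did not form a uniform group. Summed over 7 markers of hyperplastic epidermis, led by *Krt6a*, lesional replicates 11 and 2 had 33980 and 13760 CPM, whereas lesional replicates 5, 8 and 14 had 734 to 971 CPM, inside the WT range of 658 to 2206 CPM. The 9 neutrophil markers, of which *Ly6g* and *Csf3r* were at 0 in all libraries, summed to 5224 and 3011 CPM in lesional replicates 11 and 2, to 9.99 to 17.9 CPM in the other three, and to 7.42 to 17.5 CPM in WT libraries. Of these sums *S100a8* and *S100a9*, the calprotectin genes, made up 5115 and 2986 CPM. The other 7 markers came to 109 and 25.4 CPM, against 4.80 to 12.03 CPM in WT libraries. Non-lesional replicate 3 had 218 CPM of *S100a8* and *S100a9*, 3.12 CPM of the other 7 markers, which is below every WT library, and 1699 CPM of hyperplasia markers. Among the latter, *Krt6b* had 495 counts against 3 to 44 in WT libraries, and *Sprr1b* 57 against 1 to 25. *Sprr2d* had 22 counts against 0 to 1, and *Stfa1* 31 against 0 to 9. The counts of *Krt6a*, *Krt16* and *Krt17* lay inside the WT range. In bulk skin, fewer cells of a type and less RNA per cell cannot be told apart. The counts of called genes in the lesional comparisons, and the values of members described singly there, are mostly given also without replicate 11 or without replicates 2 and 11.

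**Figure D1:**
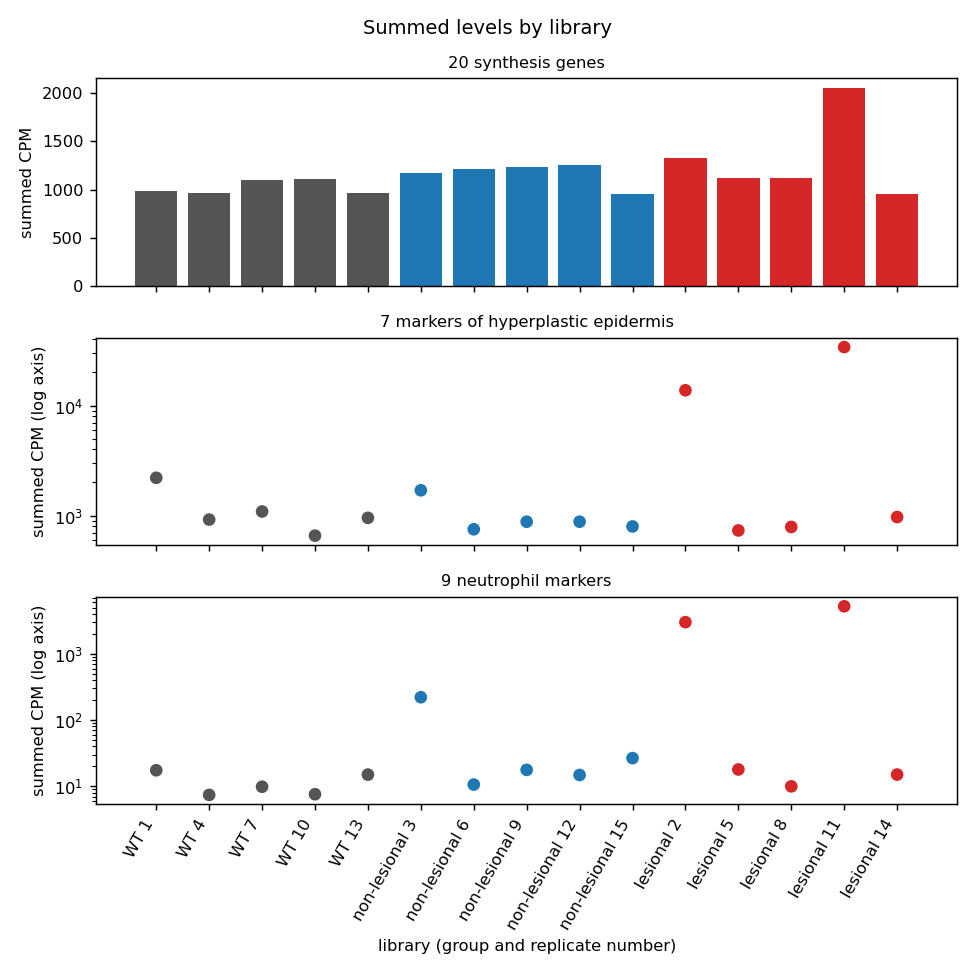
Summed CPM by library for the 20 synthesis genes (bars, linear axis), 7 markers of hyperplastic epidermis and 9 neutrophil markers (points, log axes), coloured by group with WT in grey, non-lesional in blue and lesional in red. Lesional replicate 11 had the highest sum in all 3 panels, and lesional replicates 5, 8 and 14 lay near the WT libraries for both marker lists.

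Most synthesis genes had a positive log2 fold change between non-lesional OTULIN-KO and WT skin, and no synthesis gene passed the adjusted test. Some of the positive values were well within their SE, such as those of *Lss* (0.006), *Sc5d* (0.04) and *Hmgcs1* (0.04). Of 19 tested synthesis genes, 16 had a positive log2 fold change between non-lesional and WT libraries, with a median of 0.17 against a median of -0.002 over the 13021 genes tested, of which 49.5% were positive. No gene of the table had an adjusted p under 0.05 in edgeR's quasi-likelihood test (0%), and 6 synthesis genes had an unadjusted p under 0.05, all of them higher, where 1.85% of all genes were so called higher and 1.3% lower. They were *Acat2*, *Lbr*, *Msmo1*, *Hsd17b7*, *Cyp51* and *Ebp*. DESeq2 called 1 gene of the table at an adjusted p under 0.05 and limma 0. With consecutive replicate numbers (1 to 3, 4 to 6 and so on) as a block, 8 genes of the table had an adjusted p under 0.05, none of them a member. In that fit 8 synthesis genes were called higher at an unadjusted p, the 6 above with *Sqle* and *Mvd*, where 3.27% of all genes were. The summed level of the 20 synthesis genes was 962 to 1110.0 CPM in WT libraries and 951 to 1252 CPM in non-lesional libraries, where replicate 15 lay below and the other 4 above every WT library.

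**Figure D2:**
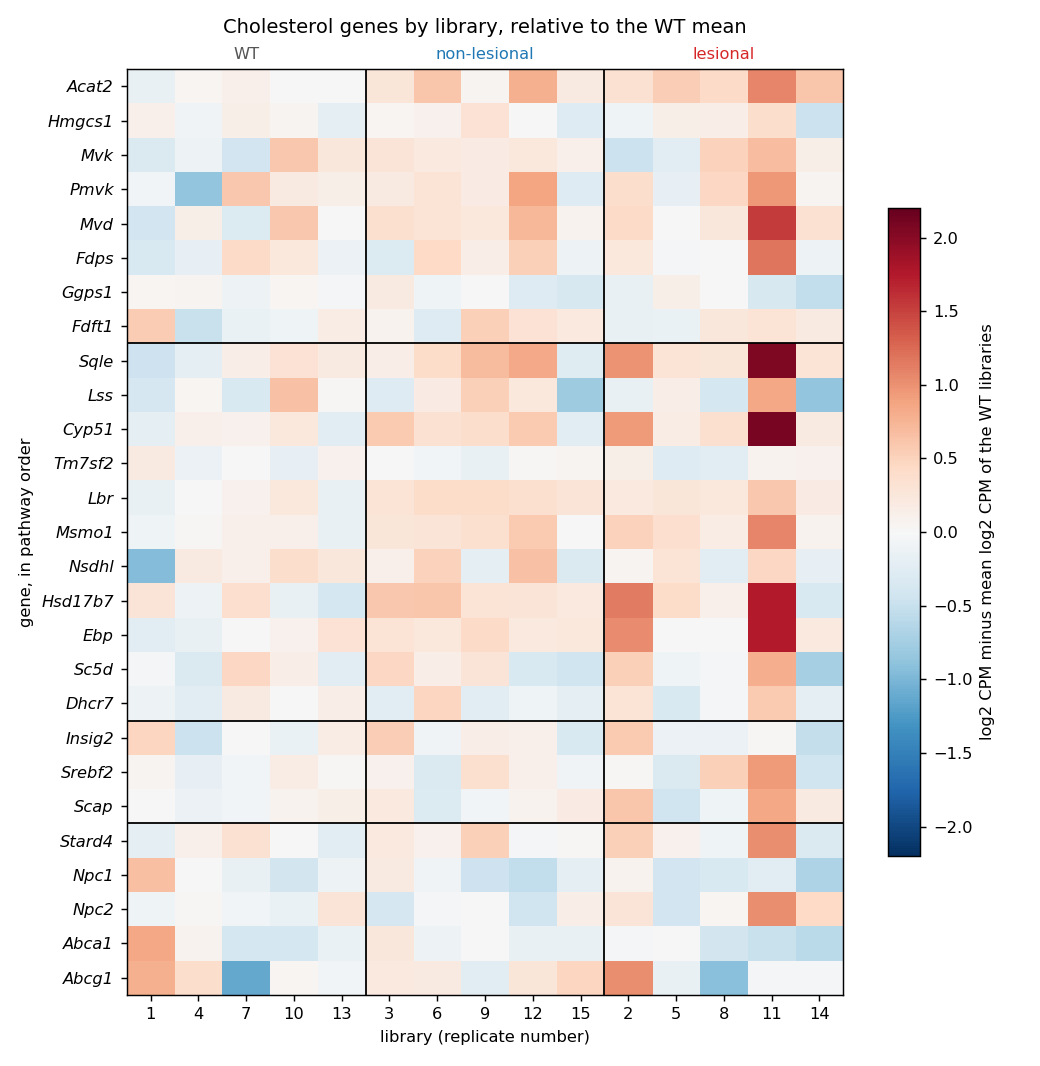
Level of 27 genes (rows, in pathway order, with lines between synthesis to squalene, synthesis from squalene, regulators and transport) in the 15 libraries (columns), as log2 CPM minus the mean of the WT libraries; red is higher and blue lower. Lesional replicate 11 had the highest level of all 15 libraries for 15 of the 19 synthesis genes shown, and *Lbr* was above WT in all non-lesional libraries.

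In the arm from acetyl-CoA to squalene, 7 of 8 tested genes were positive between non-lesional and WT libraries (median log2 fold change 0.16), and the first enzyme stood out. The division of the synthesis genes at squalene was made after the values were seen. *Acat2* encodes the cytosolic thiolase that makes acetoacetyl-CoA. It had 26.8, 31.0, 32.2, 29.9 and 30.1 CPM in WT libraries, 36.1, 46.3, 31.3, 52.1 and 34.5 CPM in non-lesional libraries, and 38.1, 44.1, 40.4, 63.7 and 46.1 CPM in lesional libraries, each in the order of the replicate numbers given above. All lesional libraries and all non-lesional libraries but replicate 9 lay above every WT library. The counts behind these values were 69 to 130. Its log2 fold change was 0.42 (SE 0.16, unadjusted p = 0.0146, adjusted p = 0.9998, edgeR) between non-lesional and WT libraries, and 0.31 without non-lesional replicate 12, where it no longer passed an unadjusted p of 0.05. A two-sided exact permutation test over all regroupings of the 10 libraries gave p = 0.0159.

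*Hmgcs1*, the next enzyme, which makes HMG-CoA, did not differ beyond its spread. It had 263, 229, 266, 253 and 209.6 CPM in WT, 249, 259, 303, 245 and 200.5 CPM in non-lesional, and 229, 267, 268, 316 and 175 CPM in lesional libraries. The 3 groups overlapped widely, and the log2 fold changes were 0.04 (SE 0.11) for non-lesional against WT, 0.04 (SE 0.16) for lesional against WT and -0.003 (SE 0.16) for lesional against non-lesional libraries. Without lesional replicates 2 and 11 the latter values were -0.05 and -0.09.

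The mevalonate kinases and the decarboxylase came next. *Mvk*, mevalonate kinase, had 10.3 to 21.9 CPM in WT and 15.3 to 17.4 CPM in non-lesional libraries. *Pmvk*, phosphomevalonate kinase, had 9.61 to 27.8 and 14.8 to 34.1 CPM. *Mvd*, which removes a carboxyl group to give isopentenyl diphosphate, had 16.3 to 33.7 and 23.6 to 37.3 CPM, with log2 fold changes of 0.33 (SE 0.20) in non-lesional and 0.59 (SE 0.30) in lesional libraries against WT. The lesional *Mvd* value was 0.22 without lesional replicate 11, which had 65.7 CPM, and 0.15 without replicates 2 and 11. For these genes the groups overlapped, and none had an unadjusted p under 0.05 in the main edgeR fits. *Mvd* passed it in some alternative fits, among them non-lesional against WT without WT replicate 10 (0.51, unadjusted p = 0.0144, edgeR). Between lesional and WT libraries it passed with all 15 libraries in 1 fit (0.58, unadjusted p = 0.0408, edgeR). It also passed there without a filter on low counts (0.59, unadjusted p = 0.0448, edgeR). With the block of consecutive numbers *Mvd* had 0.34 (SE 0.16, unadjusted p = 0.0444, edgeR) in non-lesional libraries against WT.

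The genes that join the isoprenoid units also overlapped between groups. *Fdps*, farnesyl diphosphate synthase, had 7.38 to 12.98 CPM in WT and 7.57 to 14.02 CPM in non-lesional libraries. *Fdft1*, squalene synthase, had 13.5 to 28.7 and 15.7 to 28.0 CPM. *Ggps1*, which leads away from squalene to geranylgeranyl diphosphate, was the only tested gene of this arm below 0, with log2 fold changes of -0.10 (SE 0.13) in non-lesional and -0.18 (SE 0.16) in lesional libraries against WT, the latter -0.12 without replicates 2 and 11. *Idi1*, the isopentenyl diphosphate isomerase, had 0 to 7 counts in a library and did not pass the filter on low counts, so it was left out of the fits. Exact permutation tests of its values gave p = 0.643, 0.81 and 0.762 for non-lesional against WT, lesional against WT and lesional against non-lesional libraries.

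In the arm from squalene to cholesterol, 9 of 11 genes were positive between non-lesional and WT libraries (median log2 fold change 0.27), and 5 of the 6 genes with an unadjusted p under 0.05 belonged to it. *Lbr* (chr1:181815335-181843046, GRCm38, GENCODE) encodes a sterol reductase that is also the lamin B receptor of the inner nuclear membrane. It had 53.6, 60.7, 64.5, 70.4 and 53.3 CPM in WT libraries, 73.9, 79.5, 79.5, 77.3 and 73.4 CPM in non-lesional libraries, and 70.3, 72.3, 70.8, 91.3 and 68.0 CPM in lesional libraries. The non-lesional and WT groups did not overlap, which held in the higher direction for 0.392% of the genes tested. *Lbr* was the only member so separated in this comparison. Its log2 fold change was 0.35 (SE 0.11, unadjusted p = 0.0070, adjusted p = 0.9998, edgeR), a fold of 1.27, and p = 0.0079 from the exact permutation test, the smallest it can give for 5 against 5 libraries. The reductase *Tm7sf2*, which acts at the same step, had 29.9 to 38.8 CPM in WT and 30.1 to 35.4 CPM in non-lesional libraries (log2 fold change -0.04, SE 0.14). An exon of *Lbr* overlaps *Gm26004* on the same strand and another gene, *Dnah14*, on the opposite strand, and one of *Tm7sf2* overlaps *Vps51*. No strand was set in the counting, and it assigned a read to each gene it overlapped, so both values may hold reads of the neighbour.

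*Msmo1*, the methyl sterol oxidase, had 165, 178, 189.8, 190.5 and 157 CPM in WT, 211, 215, 224, 263 and 177 CPM in non-lesional, and 249, 227, 198, 370.5 and 186 CPM in lesional libraries. All non-lesional libraries but replicate 15 and all lesional libraries but replicate 14 lay above every WT library. The log2 fold change between non-lesional and WT libraries was 0.31 (SE 0.11, unadjusted p = 0.0114, edgeR), and 0.23 without non-lesional replicate 12, where it did not pass. *Nsdhl*, whose enzyme works with MSMO1 in taking off methyl groups, had 6.99 to 19.0 CPM in WT and 11.4 to 22.8 CPM in non-lesional libraries (log2 fold change 0.14, SE 0.26).

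*Hsd17b7*, which encodes the keto-reductase of the same demethylation steps, had 43.1, 32.3, 45.7, 31.2 and 26.7 CPM in WT, 53.4, 54.0, 43.7, 42.9 and 40.6 CPM in non-lesional, and 78.0, 46.7, 38.0, 119.8 and 27.7 CPM in lesional libraries. The lower non-lesional libraries overlapped the higher WT libraries, and the log2 fold change was 0.39 (SE 0.16, unadjusted p = 0.0241, edgeR), under 0.05 in 15 of 21 alternative fits. *Ebp*, the sterol isomerase, had 47.4, 49.8, 55.5, 60.3 and 70.2 CPM in WT, 69.0, 66.3, 75.4, 64.9 and 66.0 CPM in non-lesional, and 116, 56.4, 55.6, 189 and 65.5 CPM in lesional libraries. WT replicate 13 lay among the non-lesional libraries, and the log2 fold change of 0.27 (SE 0.13, unadjusted p = 0.0442, edgeR) stayed under 0.05 in 8 of 21 alternative fits.

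*Cyp51*, the lanosterol demethylase, had 50.9, 63.8, 63.1, 69.1 and 50.0 CPM in WT, 88.2, 74.4, 77.4, 88.6 and 49.4 CPM in non-lesional, and 113, 66.2, 75.5, 253 and 67.5 CPM in lesional libraries. Non-lesional replicate 15 lay below every WT library and the other non-lesional libraries above, and the log2 fold change was 0.35 (SE 0.15, unadjusted p = 0.0321, edgeR) with all libraries, 0.47 without replicate 15 and 0.27 with a sebaceous gland score as a covariate. This call was kept in 13 of 21 alternative fits. Between non-lesional and WT libraries the exact permutation test gave p = 0.119 for *Cyp51*, 0.0714 for *Hsd17b7*, 0.0397 for *Ebp* and 0.0317 for *Msmo1*. *Sqle* (chr15:59315077-59331192) encodes squalene epoxidase. It had 26.8, 31.4, 40.8, 46.4 and 42.4 CPM in WT, 41.0, 49.3, 60.5, 66.1 and 30.6 CPM in non-lesional, and 73.5, 45.7, 44.4, 156 and 45.6 CPM in lesional libraries. Its log2 fold change between non-lesional and WT libraries was 0.40 (SE 0.20, unadjusted p = 0.0578, edgeR), and 0.38 (unadjusted p = 0.0205) with the block of consecutive numbers and 0.53 (unadjusted p = 0.0081) without replicate 15, which again lay with the lower WT libraries. An exon of *Cyp51* overlaps *Akap9* on the opposite strand, and the listed counting parameters set no strand, so reads of the pair cannot be told apart.

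The remaining genes of this arm did not separate. *Lss*, lanosterol synthase, had 11.3 to 23.6 CPM in WT and 8.30 to 21.8 CPM in non-lesional libraries, *Sc5d*, the desaturase, 43.7 to 74.8 and 40.2 to 74.8 CPM, and *Dhcr7*, a last reductase of the pathway, 57.6 to 78.4 and 57.9 to 94.8 CPM. Their log2 fold changes were 0.006 (SE 0.26), 0.04 (SE 0.18) and -0.04 (SE 0.15). Without non-lesional replicate 12 the count of synthesis genes with an unadjusted p under 0.05 fell from 6 to 2, *Lbr* and *Hsd17b7*, while the share of all genes called higher went from 1.85% to 1.27%. It was 7 without WT replicate 10, where 2.32% of all genes were called higher.

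**Figure D3:**
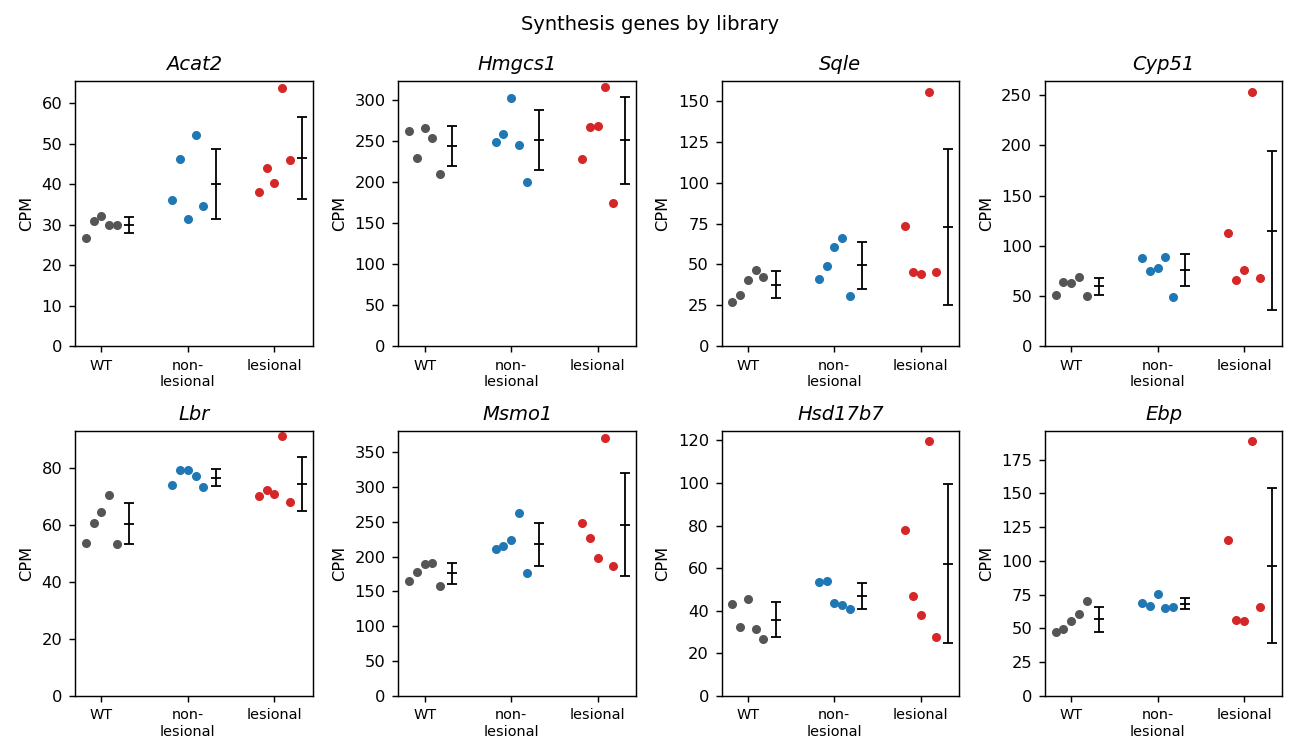
CPM of 8 synthesis genes in each library (points, in label order within a group) with the mean and SD of the 5 libraries beside them; every axis starts at 0. The *Lbr* values of non-lesional libraries (73.4 to 79.5 CPM) lie above all WT values, the *Acat2* values of lesional libraries (38.1 to 63.7 CPM) lie above all WT values, and lesional replicate 11 is the highest library for every gene shown.

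Between lesional and WT libraries 16 of 19 synthesis genes were again positive, with a median log2 fold change of 0.30, against -0.003 over the 12918 genes tested, of which 49.5% were positive. Adjusted p was under 0.05 for 0% of genes. An unadjusted p under 0.05 was found for 6 synthesis genes, all higher, where 3.24% of all genes were called higher and 1.56% lower. These were *Acat2*, *Sqle*, *Cyp51*, *Msmo1*, *Hsd17b7* and *Ebp*. DESeq2 called 14 genes of the table at an adjusted p under 0.05 and limma 0. With the block of consecutive numbers 6 were called, where *Mvd* (unadjusted p = 0.0264) and *Lbr* (0.0469) took the place of *Hsd17b7* (0.0622) and *Ebp* (0.0587), and 2.58% of all genes were called higher and 2.01% lower. The comparison shares its WT libraries with the one above, so the 2 sets of values are not independent.

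The sizes in this comparison depended on 1 library. *Sqle* reached 73.0 ± 47.9 CPM (SD, n = 5) in lesional libraries against 37.6 ± 8.14 CPM in WT, a log2 fold change of 0.96 (SE 0.35, unadjusted p = 0.0177, adjusted p = 0.9255, edgeR) that became 0.48 without lesional replicate 11. *Cyp51* reached 115 ± 79.5 CPM against 59.4 ± 8.52 CPM, with a log2 fold change of 0.96 (SE 0.35, unadjusted p = 0.0198, edgeR) and 0.44 without that library. *Hsd17b7* (0.79, SE 0.35) and *Ebp* (0.77, SE 0.32) had 0.41 and 0.37 without it and then no unadjusted p under 0.05. With replicates 2 and 11 both left out, the log2 fold changes of *Sqle*, *Cyp51*, *Msmo1*, *Hsd17b7* and *Ebp* were 0.26, 0.23, 0.20, 0.06 and 0.06, and none of them passed.

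*Acat2* was the exception among these 6 genes. It was the only member whose lesional and WT libraries did not overlap, which held in the higher direction for 0.441% of genes tested. Its log2 fold change of 0.63 (SE 0.17, unadjusted p = 0.0022, adjusted p = 0.9255, edgeR), a fold of 1.55, was 0.49 without lesional replicate 11 and 0.53 (unadjusted p = 0.0060) without replicates 2 and 11, and it stayed under 0.05 in all 22 alternative fits. The exact permutation test gave p = 0.0079 for *Acat2*. For the other called genes it gave 0.0317 (*Sqle*), 0.0238 (*Cyp51*), 0.0238 (*Msmo1*), 0.183 (*Hsd17b7*) and 0.135 (*Ebp*).

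Over the 19 synthesis genes, the median log2 fold change between lesional and WT libraries was 0.00702 without lesional replicate 11, with 11 genes positive and 4 called, and 0.06 without replicates 2 and 11, with 11 positive and 1 called. The share of all genes called higher was 1.49% and 1.42% in these fits. Without lesional replicate 5 there were 9 members called, among them *Mvd*, *Npc2* and *Scap*, where 7.49% of all genes were called, against 4.81% with all libraries. In lesional replicate 11, 18 of the 19 genes lay above their median over the 15 libraries, and 15 were higher than in any other library. The same count of genes above the median was 12 in lesional replicate 2, 9, 8 and 4 in lesional replicates 5, 8 and 14, 4 to 16 in non-lesional libraries and 3 to 10 in WT libraries. Lesional replicate 11 also had the highest summed epidermal keratinocyte markers, 18220 CPM against 9643 to 14320 CPM in all other libraries. That list went both ways, since 5 of its 12 genes were highest in this library, among them *Krt14* (5933 CPM) and *Krt5* (4325 CPM), and *Lor* (854 CPM) and *Col17a1* (185 CPM) were lowest and *Krt10* (1369 CPM) was below all but lesional replicate 14 (1048 CPM). The library had the lowest muscle markers, 4242 CPM against 18170 to 41610 CPM, the lowest fibroblast markers, 16510 CPM against 26080 to 67800 CPM, and the lowest adipocyte markers, 2080 CPM against 2798 CPM in lesional replicate 2 and at least 4033 CPM elsewhere. With hair follicle and muscle marker scores as covariates, the median over the synthesis genes was 0.15 and 6 members were called, beside 3.97% of all genes. The muscle score was 8.25 in lesional replicate 11 and at least 10.2 in all other libraries, so this fit does not tell muscle content from that library. The part of the muscle, keratinocyte, fibroblast and adipocyte markers in these values was not tested.

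**Figure D4:**
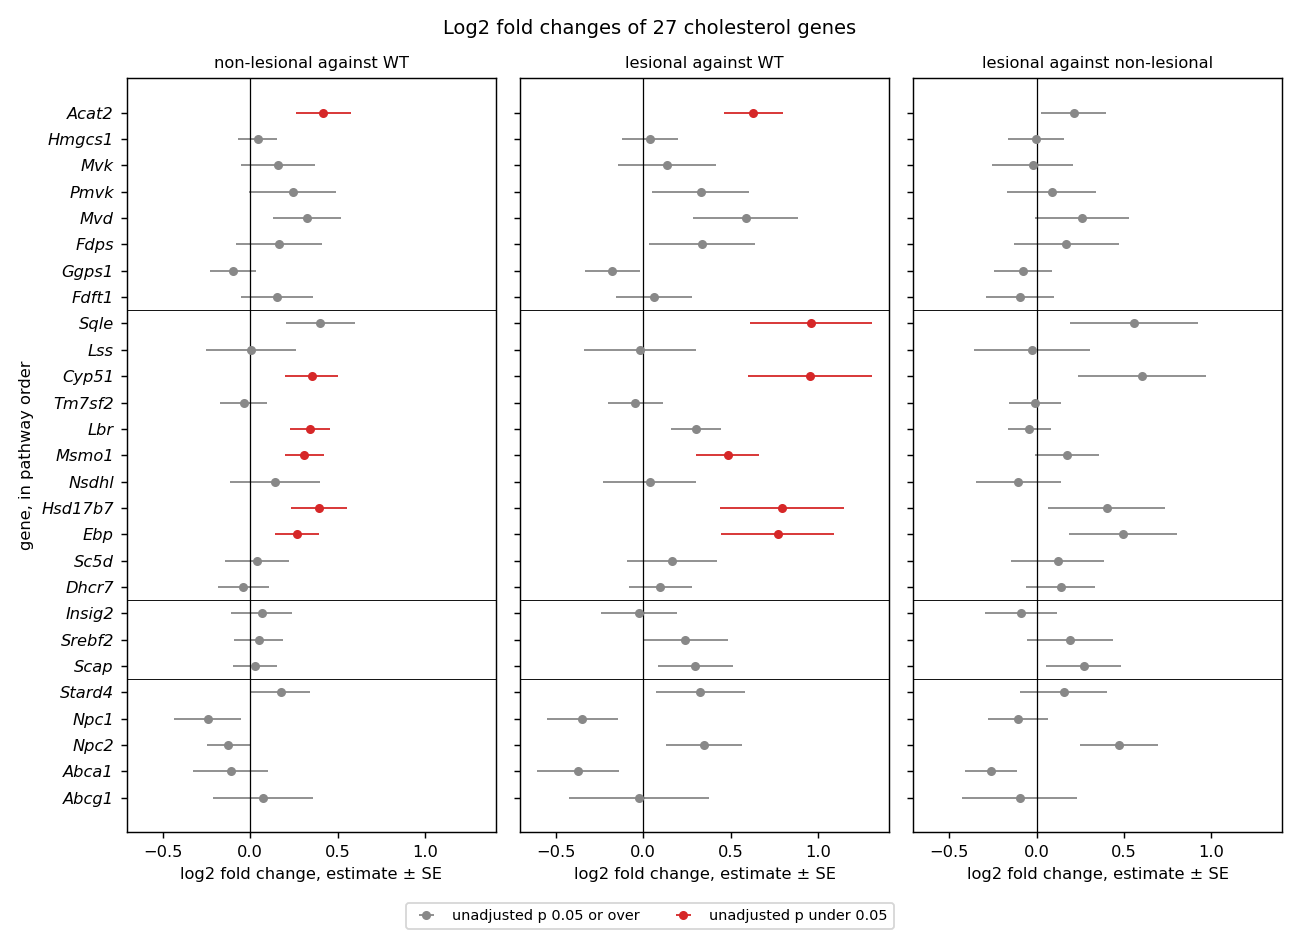
Log2 fold change of each of 27 genes (rows, in pathway order) in the 3 comparisons, with bars of 1 SE; red marks an unadjusted p under 0.05 in edgeR's quasi-likelihood test. Red points occur only among synthesis genes in the comparisons with WT, 6 in each.

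Between lesional and non-lesional libraries no member had an unadjusted p under 0.05, where 2.89% of 12864 genes were called higher and 1.33% lower and 0% passed an adjusted p of 0.05 (0 genes by DESeq2 and limma too). Groups that did not overlap in the higher direction were found for 0.295% of genes and for 0 members. The synthesis genes had a median log2 fold change of 0.12 with 11 of 19 positive, against 50.6% of all genes. The direction turned when the 2 inflamed libraries were left out, to -0.08 with 5 positive without replicate 11 and to -0.13 with 1 positive, *Acat2*, without replicates 2 and 11. *Cyp51* (0.60, SE 0.37), *Sqle* (0.56, SE 0.37), *Ebp* (0.50, SE 0.31) and *Hsd17b7* (0.40, SE 0.33) had the largest values of the synthesis genes with all libraries and -0.12, -0.13, -0.21 and -0.33 without those libraries.

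The regulators did not separate in any comparison. *Srebf2* had 43.1, 36.2, 39.4, 46.4 and 42.1 CPM in WT, 44.1, 33.1, 52.7, 44.9 and 39.3 CPM in non-lesional, and 42.2, 32.8, 59.6, 79.7 and 30.1 CPM in lesional libraries. The lesional libraries lay on both sides of the WT range. The log2 fold changes were 0.05 (SE 0.14) in non-lesional and 0.24 (SE 0.24) in lesional libraries against WT, the latter -0.02 without replicates 2 and 11. *Scap* had 57.6 to 69.1 CPM in WT, 51.0 to 73.5 CPM in non-lesional and 46.7 to 115 CPM in lesional libraries, and its log2 fold change between lesional and WT libraries was 0.30, or -0.10 without replicates 2 and 11. *Insig2*, the INSIG form that depends less on SREBP2, had 53.3 to 103 CPM in WT, 58.5 to 108 CPM in non-lesional and 51.5 to 112 CPM in lesional libraries. The *Insig2* value between lesional and WT libraries was -0.02 on the log2 scale, or -0.29 without those replicates. *Insig1*, the form that is a target of SREBP2, had 3.49, 2.62, 1.34, 0.843 and 2.25 CPM in WT, 2.23, 0.850, 2.06, 2.81 and 0.437 CPM in non-lesional, and 1.36, 5.64, 2.40, 3.01 and 0.485 CPM in lesional libraries. These are 1 to 11 counts in a library, so *Insig1* did not pass the filter. Exact permutation tests gave p = 0.508, 0.849 and 0.484 for non-lesional against WT, lesional against WT and lesional against non-lesional libraries, at a depth where 1 count is a large part of a value.

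The transport genes showed no called difference, and 3 of 5 had negative log2 fold changes in each comparison. *Stard4* carries cholesterol between membranes in the cytosol and is a sterol-regulated gene. It had 19.4, 24.4, 28.7, 22.8 and 19.2 CPM in WT, 26.3, 24.2, 33.0, 22.0 and 23.1 CPM in non-lesional, and 33.1, 24.1, 21.2, 47.1 and 17.96 CPM in lesional libraries. Only lesional replicates 2 and 11 and non-lesional replicate 9 lay above WT, and the log2 fold changes against WT were 0.17 (SE 0.17) in non-lesional and 0.33 (SE 0.25) in lesional libraries, the latter -0.12 without replicates 2 and 11.

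*Npc1* and *Npc2* move cholesterol taken up with lipoproteins out of lysosomes. *Npc2* had 170.0, 183, 175, 163 and 219.7 CPM in WT, 141, 178, 182, 133 and 201 CPM in non-lesional, and 220.5, 135, 188, 368 and 247 CPM in lesional libraries. The log2 fold change between lesional and non-lesional libraries was 0.47 (SE 0.22, unadjusted p = 0.0554, edgeR), 0.24 without lesional replicate 11, 0.18 without replicates 2 and 11, and past an unadjusted p of 0.05 without lesional replicate 5 (0.61) or 8 (0.54) or non-lesional replicate 15 (0.55). The 11 macrophage markers summed to 789 CPM in lesional replicate 11, 704 CPM in lesional replicate 2, 514 to 672 CPM in the other lesional libraries, 513 to 694 CPM in non-lesional and 408 to 883 CPM in WT libraries, and their part in the *Npc2* values was not tested. *Npc1* had 122 to 255 CPM in WT, 111 to 186 CPM in non-lesional libraries and up to 169.7 CPM in lesional libraries. Between non-lesional and WT libraries it had a log2 fold change of -0.24 (unadjusted p = 0.2282, edgeR), and -0.22 (unadjusted p = 0.0232) with the block of consecutive numbers. Its log2 fold change between lesional and WT libraries was -0.35 (SE 0.20), -0.14 without WT replicate 1 and -0.53 (SE 0.21, unadjusted p = 0.0254, edgeR) without lesional replicates 2 and 11.

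*Abca1* and *Abcg1* export cholesterol to lipoprotein particles and are induced by oxysterols through LXR. *Abca1* had 179, 104, 75.2, 75.5 and 89.0 CPM in WT, 117, 91.8, 99.3, 88.6 and 88.2 CPM in non-lesional, and 97.1, 98.0, 74.8, 70.2 and 65.0 CPM in lesional libraries. WT replicate 1 lay above all other libraries. The log2 fold change was -0.37 (SE 0.24) between lesional and WT libraries, -0.08 without WT replicate 1 and -0.41 without lesional replicates 2 and 11. It was -0.26 (SE 0.15) between lesional and non-lesional libraries and -0.29 without those replicates. *Abcg1* had 17.5, 13.1, 4.03, 10.1 and 9.39 CPM in WT, 11.6, 11.5, 8.24, 12.02 and 13.98 CPM in non-lesional, and 20.9, 8.72, 4.80, 9.53 and 9.71 CPM in lesional libraries, with the non-lesional values inside the WT range. Its log2 fold change between lesional and WT libraries was -0.02 (SE 0.40), and -0.51 without lesional replicates 2 and 11. WT replicate 1 also had 1339 CPM of hair follicle markers, against 35.6 to 166 CPM in all other libraries, and the library also had the highest *Npc1* and *Abca1* levels among WT libraries. With hair follicle and muscle scores as covariates the log2 fold changes between non-lesional and WT libraries were 0.02 (SE 0.12) for *Npc1* and 0.21 (SE 0.12) for *Abca1*, and between lesional and WT libraries -0.17 (SE 0.13) and -0.07 (SE 0.16). The hair follicle score was 5.65 in WT replicate 1 and at most 4.49 in any other library. These fits therefore do not tell hair content from that library, and its part in these values was not tested.

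**Figure D5:**
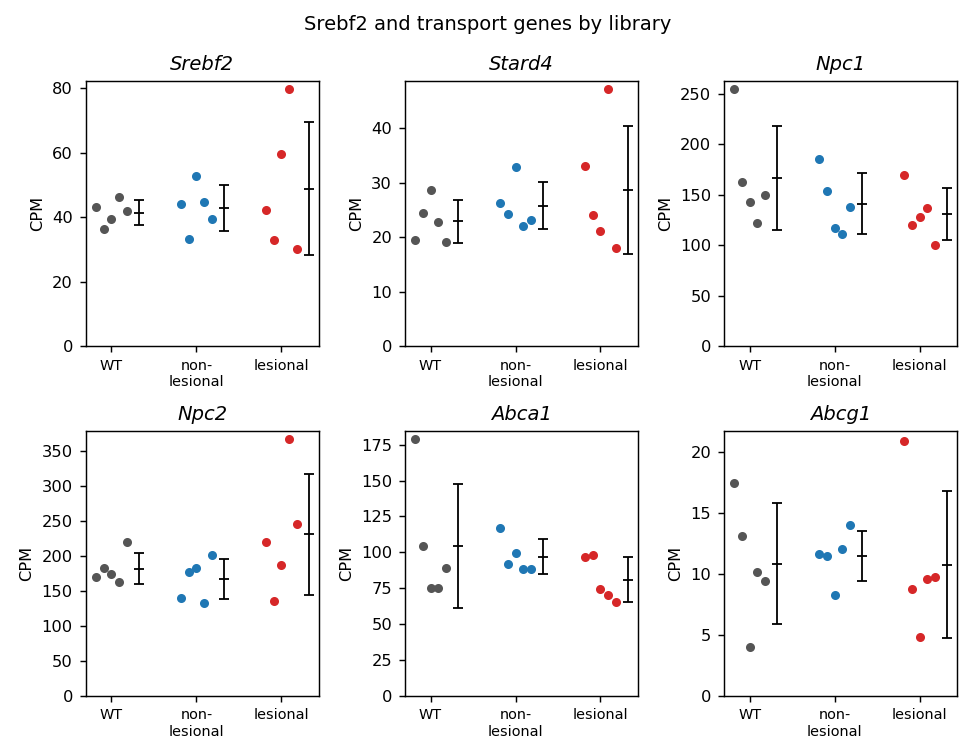
CPM of *Srebf2* and the 5 transport genes in each library (points, in label order within a group) with the mean and SD of the 5 libraries beside them; every axis starts at 0. The groups overlap for all 6 genes, with WT replicate 1 highest for *Npc1* and *Abca1* (255 and 179 CPM) and lesional replicate 11 highest for *Npc2*, *Stard4* and *Srebf2*.

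Other genes of sterol biology were read from 4 further lists, of which 54 of 56 genes were in the table. The list nearest to the synthesis genes, of other sterol synthesis and isoprenoid branch genes, had 7 of 9 genes positive between non-lesional and WT libraries (median log2 fold change 0.18), with 0 called. The lists of sterol sensing, of sterol transport and storage, and of oxysterol and sterol sulphate genes had 7 of 15, 10 of 22 and 2 of 4 genes positive, with medians of -0.02, -0.02 and -0.05. Of the 50 tested over the 4 lists, 26 were positive. Between lesional and WT libraries 20 of 50 were positive (median -0.04), with *Sult2b1* (0.69, SE 0.29), the cholesterol sulphotransferase of the upper epidermis, and *Rabggtb* (0.40, SE 0.18), a subunit of a Rab prenyltransferase, higher and *Cyp39a1* (-0.94, SE 0.42), an oxysterol hydroxylase, lower at an unadjusted p under 0.05, where 3.24% of all genes were called higher and 1.56% lower. Without lesional replicates 2 and 11 none of these lists had a call against WT. Between lesional and non-lesional libraries 5 of 49 were called higher and 1 lower, where 2.89% and 1.33% of all genes were. *Tmem97* (0.96, SE 0.36), a sterol-regulated partner of NPC1, had the smallest p among them. Without replicates 2 and 11, 1 gene of these lists was called, beside 3.51% of all genes.

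Fatty acid synthesis, which draws on the same acetyl-CoA, was set beside the cholesterol genes. Between non-lesional and WT libraries all 12 tested genes of that list were positive, with a median log2 fold change of 0.36 and 4 called higher (49.5% of all genes were positive and 1.85% called higher; 8 with the block of consecutive numbers, beside 3.27%), against 0.17 for the synthesis genes of cholesterol. *Fasn*, fatty acid synthase, had a log2 fold change of 0.70 (SE 0.16), *Acaca*, acetyl-CoA carboxylase, 0.63 (SE 0.16), *Acly*, which makes cytosolic acetyl-CoA from citrate, 0.40 (SE 0.11), and *Acss2*, which makes it from acetate, 0.48 (SE 0.20). Between lesional and WT libraries 10 of 12 were positive with 3 called higher, where 3.24% of all genes were, and 2 without lesional replicates 2 and 11, where 1.42% were. The difference between the 2 lists was not tested. Sebaceous gland markers, of which 9 of 12 tested were positive and 0 called between non-lesional and WT libraries, summed to 956 to 1560.0 CPM in WT, 1087 to 1710.0 CPM in non-lesional and 1087 to 1827 CPM in lesional libraries. The list went both ways in lesional replicate 11, with 5 of 13 genes above the WT range, led by *Krt79* (787 CPM against 91.3 to 243 CPM), and 4 below it, among them *Scd3* (40.6 CPM against 156 to 279 CPM). Between lesional and WT libraries 1 of 12 tested was called higher and 1 lower, beside 3.24% and 1.56% of all genes. With a sebaceous gland score as a covariate, the median over the cholesterol synthesis genes came to 0.15 for non-lesional against WT libraries, with 4 members at an unadjusted p under 0.05 (3.77% of all genes), and to 0.30 for lesional against WT libraries, with 5 (4.47%).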

How the data were processed

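Total RNA of skin was made into QuantSeq 3′ FWD libraries. Per the labels and the study's methods, the authors trimmed reads with cutadapt 2.10, mapped them to GRCm38 with subread-align, filtered with SAMtools 1.7-2 and deposited the raw counts of featureCounts 2.0.1 per gene, with a read that overlapped several genes counted for each. The listed counting parameters set no strand option, which leaves featureCounts at its unstranded default. The genome sequence was from Ensembl, and the release of the annotation is not given in the sources used here. They also deposited CPM, which equal each count over its library's total. Tests used the counts. The 92 spike-in rows hold 0 counts and were left out.

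CPM were recomputed with TMM factors over the 15 libraries (edgeR 4.0.16, R 4.3.3). Each pair of groups was fitted across all genes that passed filterByExpr, with TMM, robust quasi-likelihood F-tests and Benjamini-Hochberg adjustment. SE is the log2 fold change over the square root of F. The study itself used DESeq2. The procedure was tested on simulated counts. Alternatives were DESeq2 1.42.0, limma 3.58.1 with quality weights, 2 other normalizations, 2 other filters, 1 fit of all libraries, a non-robust fit, marker scores as covariates and libraries left out. Log2 CPM used a prior count of 2. The labels do not say that replicates are separate animals, while the study describes the profiles as from 5 mice a group, so p-values measure the spread between these libraries. Deviations from the group means correlated within the 5 sets of consecutive replicate numbers at 0.116 to 0.269 between non-lesional and WT, 0.11 to 0.35 between lesional and non-lesional and -0.0926 to 0.264 between lesional and WT libraries, so the sets were also fitted as a block, an alternative added after seeing the data. What a set shares is not given. No pair of replicates agreed within counting noise (smallest chi-square per degree of freedom 3.72). Exact permutation tests on log2 CPM were two-sided.

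The 29 genes and all lists were chosen with earlier results of these data known. Values in every library are given for *Hmgcs1*, *Sqle*, *Insig1*, *Srebf2*, *Stard4*, *Abca1*, *Abcg1* and *Npc2*, for members with an unadjusted p under 0.05 in any comparison and for members whose groups did not overlap with WT, and other members are given by range. At most the 4 genes of smallest p were named from other lists. A result on 1 gene of those lists is not reported here. Of the 29 genes 27 passed the filter. For 3 members an exon overlaps a neighbouring gene of the same strand, and for 9 one of the opposite strand. Promoters are from RefSeq, GRCm38.p6. RNA integrity per library is not given, and the study's methods name a RIN under 4 both as a reason for exclusion and as the RIN of the included samples, so RNA quality is uncertain.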

Additional observations from a re-analysis of the deposited data

Results flagged for a closer look

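Within each group of 5 libraries, the highest or lowest CPM of each of the 29 genes was set against its nearest neighbour with Dixon's criterion (0.71 of the range for 5 samples). It marked 10 of 87 groups. The criterion's rate of about 1 in 20 holds for independent, normally distributed values, and these groups share libraries across genes. The count and the rate are therefore not compared. Lesional replicate 11 was marked for *Sqle* (155.9 CPM), *Cyp51* (253.2 CPM), *Lbr* (91.3 CPM), *Mvd* (65.7 CPM) and *Fdps* (22.6 CPM), each time as the highest library of its group. WT replicate 1 was marked for *Abca1*, with 178.9 CPM as the highest, and for *Nsdhl*, with 6.99 CPM as the lowest. Non-lesional replicate 6 was marked for *Dhcr7* (94.8 CPM, the highest). *Idi1* was marked in WT replicate 7, listed at 0, and in non-lesional replicate 12, at 2.81 CPM, from 0 to 7 counts in a library.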

How the results depend on the processing

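No alternative reversed the direction of a member with an unadjusted p under 0.05. Such a call was kept under all alternatives for *Lbr* between non-lesional and WT libraries (21 of 21) and for *Acat2* between lesional and WT libraries (22 of 22), and *Acat2* kept it in 20 of 21 between non-lesional and WT libraries. The cause of the changes below was not tested.

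Genes with an adjusted p under 0.05 numbered 0 in each comparison. For non-lesional against WT they were 1 with DESeq2, 18 without a filter on low counts and 0 to 5 when leaving out 1 library (5 without non-lesional replicate 6), and for lesional against WT 14 with DESeq2 and 0 with any library left out.

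Members with an unadjusted p under 0.05 between non-lesional and WT libraries went from 6 (3.15% of all genes called) to 2 with all 15 libraries in 1 fit (1.98%) and ranged from 2 to 7 when leaving out 1 library (2.38% to 4.47%). Between lesional and WT libraries they went from 6 (4.81%) to 2 without lesional replicates 2 and 11 (2.94%; *Acat2* higher, *Npc1* lower) and ranged from 4 to 9 (2.57% to 7.6%). Between lesional and non-lesional libraries they went from 0 to 1 without a filter and in 1 fit of all libraries, *Npc2* both times (4.22% of all genes to 4.49% and 5.54%), and ranged from 0 to 2, *Npc2* and *Abca1*, without lesional replicate 5 (7.64%).

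The median log2 fold change of synthesis genes ranged from 0.00702 to 0.36 between lesional and WT libraries when leaving out 1 library, the lowest without lesional replicate 11, from 0.12 to 0.28 between non-lesional and WT libraries, and from -0.08 to 0.20 between lesional and non-lesional libraries. That of transport genes was -0.11 between non-lesional and WT libraries, became 0.10 with hair follicle and muscle scores as covariates, and ranged from -0.16 to 0.12, the highest without WT replicate 1. Between lesional and WT libraries it was -0.02, became -0.41 without lesional replicates 2 and 11, and ranged from -0.42 (without replicate 2) to 0.23 (without WT replicate 1). Between lesional and non-lesional libraries it ranged from -0.21 to 0.10.

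The 3 groups share no replicate number, but the numbers run in 5 sets of 3 with 1 library of each group, and no source says what a set shares. A fit with these sets as a replicate block, chosen after seeing the data, gave 8 genes with an adjusted p under 0.05 between non-lesional and WT libraries (0 without it) and 0 in both other comparisons. Members called numbered 9, 6 and 0 for non-lesional against WT, lesional against WT and lesional against non-lesional, beside 5.93%, 4.59% and 5.2% of all genes, and the changed calls were those of *Sqle*, *Mvd*, *Npc1*, *Lbr*, *Hsd17b7* and *Ebp*. *Idi1* and *Insig1*, at 0 to 11 counts, were left out of the fits that filter low counts.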
